A study of Homo sapiens with 9 samples.

Results

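The genes described here are 29 genes of mevalonate and cholesterol synthesis: 8 of the steps that lead to prenyl diphosphates, 11 of the steps between squalene and cholesterol, 5 of the SREBP system that controls the pathway, and 5 of sterol transport, efflux and the LXR receptors. They were taken by symbol from a list of pathway genes. All 29 have a probe set on the arrays. Of these, 27 belong to the 37201 probe sets with a named gene that were tested together, out of 39334 in all. The probe sets of FDFT1 and NR1H2 were named through their Entrez number, are given with values, and have an adjusted p from a fit over all 39334 probe sets. Other genes of the pathway are not analysed here.

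The cells were HuCCT-1, an established line of human cholangiocarcinoma, a cancer of the bile duct epithelium. Cells of combination 1 received the siRNAs labelled YAP1 and TAZ2, cells of combination 2 the siRNAs labelled YAP2 and TAZ3, and control cells a scrambled siRNA (NTC), with 3 arrays for each of the 3 groups. The siRNA total was 40 nM, delivered with a lipid reagent to freshly trypsinised cells, and RNA was taken 24 h later. The study's methods name only the siRNA pair of combination 1 for the arrays, and the labels do not say whether replicates came from separate cultures, so that p-values measure the spread between these samples, which may be technical. All groups were the same line under the same transfection, silencing was transient, and every gene was read as total RNA of the culture, in which fewer expressing cells and less RNA per cell cannot be told apart.

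YAP and TAZ are co-activators of the Hippo pathway that bind DNA through TEAD factors. The mevalonate pathway turns acetyl-CoA into farnesyl and geranylgeranyl diphosphate, which anchor prenylated proteins to membranes, and into squalene and cholesterol. The pathway is known to act upstream of YAP and TAZ and to favour their place in the nucleus. The enzymes are controlled together: when sterol in the endoplasmic reticulum is low, the escort protein SCAP brings the SREBP factors to the Golgi, where proteases release the active form. When sterol is high, the INSIG proteins hold SCAP back, and the LXR receptors turn on the efflux pumps ABCA1 and ABCG1.

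Promoter sequence was read from RefSeq windows on GRCh38.p14, of which 25 of the 29 genes have at least one (36 windows in all). ACAT2, FDFT1, SQLE and ABCG1 have none. In the 250 bases before each start, both strands were searched for the sterol regulatory element TCACNCCAC that SREBP binds, the E-box CACGTG that SREBP and other factors bind, the NF-Y box CCAAT, a usual partner element of SREBP sites, and the TEAD site GGAATG. No motif of the 4 contains another. CCAAT was in 20 of the 36 windows (55.6%), against 32.0% of all 35116 windows. CACGTG was in 5 of 36 (13.9%), against 6.34%, and GGAATG in 5 of 36 (13.9%), against 11.9%. TCACNCCAC was in 1 of 36 windows (2.78%), against 0.883%. The 5 genes with a GGAATG match were EBP, HSD17B7, NR1H3, PMVK and STARD4. These are matches of letters, not shown sites.

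The first sequence below is the promoter of INSIG2, the gene that passed the test. The other 2, of its paralogue INSIG1 and of SREBF2, are shown because they carry the elements named above, in capitals. INSIG2 is at chr2:118088221-118088470 (plus strand, the first of 2 windows) and holds none of the 4 motifs. INSIG1 is at chr7:155297628-155297877 (plus strand), with an E-box 55 to 50 bases before the start and a reversed CCAAT 170 to 166 bases before it. SREBF2 is at chr22:41832855-41833104 (plus strand), with the sterol regulatory element 133 to 125 bases before the start and a reversed CCAAT 106 to 102 bases before it.
INSIG2: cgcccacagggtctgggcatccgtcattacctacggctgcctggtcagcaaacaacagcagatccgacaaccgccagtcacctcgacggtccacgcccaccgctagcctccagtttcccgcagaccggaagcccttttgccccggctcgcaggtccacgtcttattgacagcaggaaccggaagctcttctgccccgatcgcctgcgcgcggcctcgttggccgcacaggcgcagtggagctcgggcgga
INSIG1: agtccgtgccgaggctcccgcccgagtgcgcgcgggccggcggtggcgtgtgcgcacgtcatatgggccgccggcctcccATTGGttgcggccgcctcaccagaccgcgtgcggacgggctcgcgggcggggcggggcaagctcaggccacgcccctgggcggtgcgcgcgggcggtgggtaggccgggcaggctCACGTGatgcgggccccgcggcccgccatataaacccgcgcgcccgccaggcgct
SREBF2: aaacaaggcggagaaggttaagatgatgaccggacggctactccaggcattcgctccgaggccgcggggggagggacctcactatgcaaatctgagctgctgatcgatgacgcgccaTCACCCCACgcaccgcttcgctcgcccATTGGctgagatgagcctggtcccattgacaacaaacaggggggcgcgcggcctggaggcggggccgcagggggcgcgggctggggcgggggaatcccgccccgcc

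The arrays were comparable in level, with medians of log2 signal between 5.83 and 5.84. Both siRNA targets were low in every silenced array. YAP1 had a log2 signal of 6.84, 6.85 and 6.95 with combination 1 and 6.86, 6.73 and 6.97 with combination 2, against 9.15, 9.06 and 9.08 with scrambled siRNA. WWTR1, which encodes TAZ, lay between 6.95 and 7.06 in the 6 silenced arrays, against 8.30 to 8.41 with scrambled siRNA. Over 7 biliary epithelial markers, the mean log2 signal of an array was 10.02 to 10.11 with combination 1, 9.87 to 10.02 with combination 2 and 9.94 to 9.98 with scrambled siRNA. The same mean over 7 hepatocyte markers was 5.17 to 5.24 with combination 1 and 5.14 to 5.22 with combination 2, against 5.08 to 5.15 with scrambled siRNA. Over 5 fibroblast markers it was 5.59 to 5.68 with combination 1 and 5.62 to 5.69 with combination 2, against 5.55 to 5.64 with scrambled siRNA, and over 4 leukocyte markers 5.19 to 5.25 and 5.25 to 5.35, against 5.20 to 5.23. With combination 1 the biliary markers were split, 4 of the 7 with a positive fold change and 3 with a negative one. In 3 of them every combination 1 array was above the scrambled ones and in 1 below, where 15.8% and 10.1% of all genes were. CDH1, the epithelial cadherin, was the 1 biliary marker that passed with combination 1 (log2 fold change 0.39, adjusted p = 0.0357 from limma).

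The arrays had 2 features beside which the comparisons below are to be read. Of 19 type I interferon response genes tested, 18 passed an adjusted p of 0.05 with combination 1 and 3 with combination 2, all higher. Of all genes 1.51% and 0.75% passed. With combination 2 the fold change was positive for 18 of the 19. In 13 of them every combination 2 array was above the scrambled ones, where 11.6% of all genes were. The mean log2 signal of the 19 per array was 9.04 to 9.14 with combination 1 and 7.88 to 8.13 with combination 2, against 7.47 to 7.71 with scrambled siRNA. By the test, 14 of the 19 were higher with combination 1 than with combination 2, where 0.333% of all genes differed. Combination 2 replicate 3 also stood apart among the pathway genes. Over the 27 genes tested its root mean square deviation from its group's mean was 0.123 on the log2 scale, against 0.045 to 0.073 in the other 8 arrays. Of the 29 genes, it was the highest of all arrays for 9 and the lowest for 5, but such counts were not particular to it. Combination 2 replicate 2 was the highest for 8 and the lowest for 1. Combination 1 replicate 3 was the highest for 2 and the lowest for 9. Over all genes the deviation of combination 2 replicate 3 was 0.153, against 0.124 to 0.141 in the other 8 arrays. Without that array, the fold change with combination 2 changed sign in 3 of the 27 genes tested (MVD, HSD17B7 and SREBF2) and changed its size by over 1.5 times in 13 others. The difference between the combinations changed sign in 1 (PMVK) and its size by over 1.5 times in 15. The part of the interferon genes or of that array in the results below was not tested.

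Fold changes of the pathway genes were small and few passed the test. With combination 1, 1 of the 27 genes tested passed an adjusted p of 0.05 (limma with Benjamini-Hochberg adjustment over all 37201 genes), where 1.51% of all genes did. With combination 2 none of 27 passed, where 0.75% of all genes did. For both combinations averaged, against scrambled siRNA, the count was 1 of 27, with 1.6% of all genes. The gene that passed with combination 1 and with the mean was INSIG2. At an unadjusted p under 0.05 there were 7 of the 27 in each of these comparisons, where 15.7% of all genes were under it with combination 1, 13.3% with combination 2 and 16.3% in the mean, and an ordinary linear model without moderated variances called none in any.

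The median log2 fold change over the 27 genes was 0.018 with combination 1, beside 0.017 over all genes. With combination 2 it was 0.085, beside 0.016 over all genes. The signs were mixed with combination 1, 15 positive and 12 negative, and mostly positive with combination 2, 22 positive and 5 negative. The fold changes ran from −0.37 (SQLE) to 0.39 (INSIG2) with combination 1 and from −0.15 (IDI1) to 0.23 (HMGCS1) with combination 2. The 95% intervals hold for 1 gene at a time and rest on the spread between these arrays, which may be technical. With combination 2 the interval of no gene tested reached beyond 0.464 in size, and with combination 1 beyond 0.58. The 2 comparisons share the scrambled arrays.

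**Figure D1:**
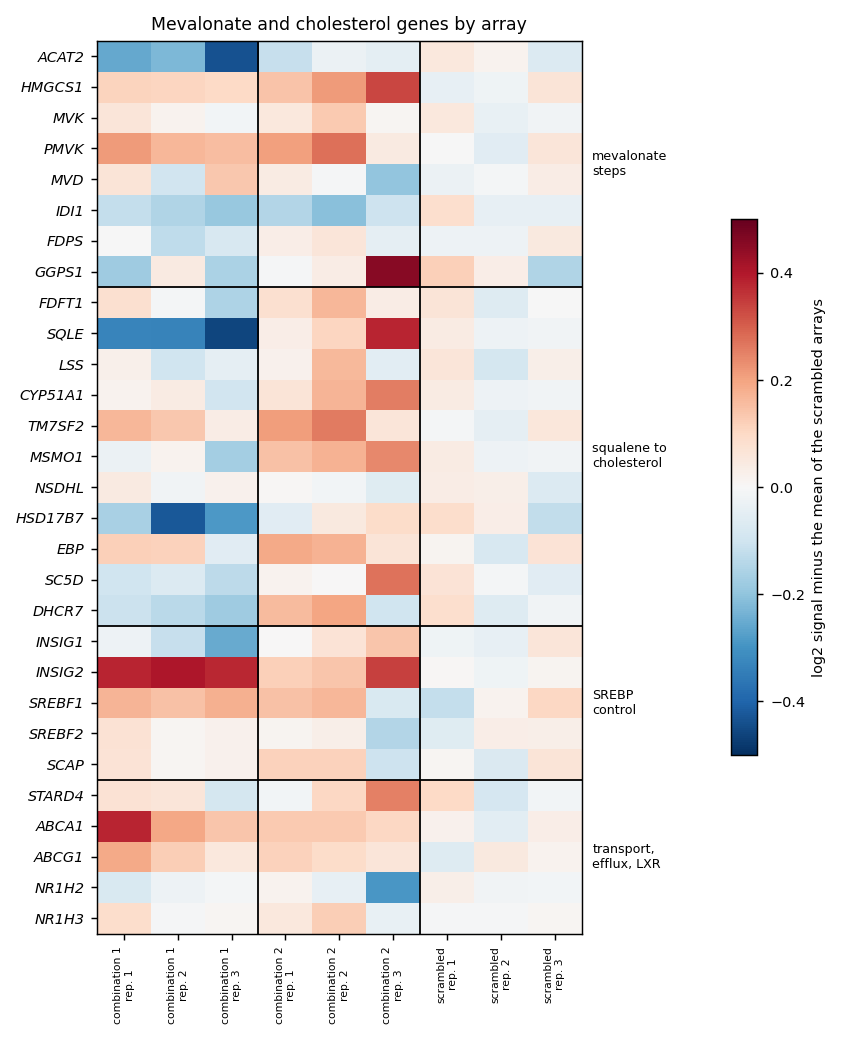
Each row is 1 of the 29 genes, in role groups, and each column 1 array; colour is the log2 signal minus the mean of the 3 scrambled arrays. INSIG2 is red in all 6 silenced arrays, SQLE is blue in the combination 1 arrays and red in combination 2 replicate 3, and most other cells are pale.

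The SREBP system held the only call. INSIG2 (Entrez 51141), a membrane protein that retains SCAP in the endoplasmic reticulum when sterol is high, had a log2 signal of 8.71, 8.73 and 8.71 in the combination 1 arrays. It had 8.45, 8.47 and 8.67 in the combination 2 arrays, against 8.33, 8.31 and 8.34 in the scrambled arrays. All 6 silenced arrays lay above all scrambled ones, and combination 2 replicate 3 lay near the combination 1 level. The group means were 8.72 ± 0.014 with combination 1 and 8.53 ± 0.12 with combination 2, against 8.33 ± 0.018 with scrambled siRNA (SD, n = 3 each).

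INSIG2 rose with combination 1 by a log2 value of 0.39 (standard error 0.066, 95% interval 0.24 to 0.54, adjusted p = 0.0298 from limma), which is 30.8% higher. With combination 2 its fold change was 0.20 (interval 0.05 to 0.35, adjusted p = 0.258) and 0.13 without replicate 3 of that group, and for the mean of both combinations it was 0.29 (adjusted p = 0.0482). The difference between the combinations was 0.19 (interval 0.04 to 0.34) and did not pass the test (adjusted p = 0.448). The call was close to the threshold: the adjusted p with combination 1 was between 0.0653 and 0.122 when any 1 array of combination 1 or of the scrambled group was left out, and 0.0527 in an ordinary linear model. Without combination 2 replicate 3 it was 0.00655. The call in the mean of both combinations was lost when any 1 array other than that one was left out (adjusted p between 0.0638 and 0.19).

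The other members of the system had smaller values. INSIG1, the paralogue whose gene is itself an SREBP target, had a log2 signal of 8.30, 8.21 and 8.08 with combination 1 and 8.33, 8.40 and 8.47 with combination 2, against 8.31, 8.29 and 8.39 with scrambled siRNA. Its fold change was −0.13 with combination 1 (adjusted p = 0.413) and 0.07 for combination 2 (adjusted p = 0.719), so that its point estimates and those of INSIG2 had opposite signs with combination 1. SREBF1, which encodes the SREBP factor of fatty acid genes, had 7.50, 7.47 and 7.50 with combination 1, all above the scrambled arrays at 7.21, 7.34 and 7.43, with a fold change of 0.16 (adjusted p = 0.372). SREBF2, which encodes the SREBP factor of cholesterol genes, had fold changes of 0.03 with combination 1 and −0.03 with combination 2. SCAP had 0.03 and 0.04 in the same order. In combination 2 replicate 3, SREBF1 (7.25), SREBF2 (7.63) and SCAP (7.94) were below the other 2 arrays of their group. Without it the fold change with combination 2 was 0.16 for SREBF1, 0.02 for SREBF2 and 0.11 for SCAP, against 0.08, −0.03 and 0.04 with it.

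**Figure D2:**
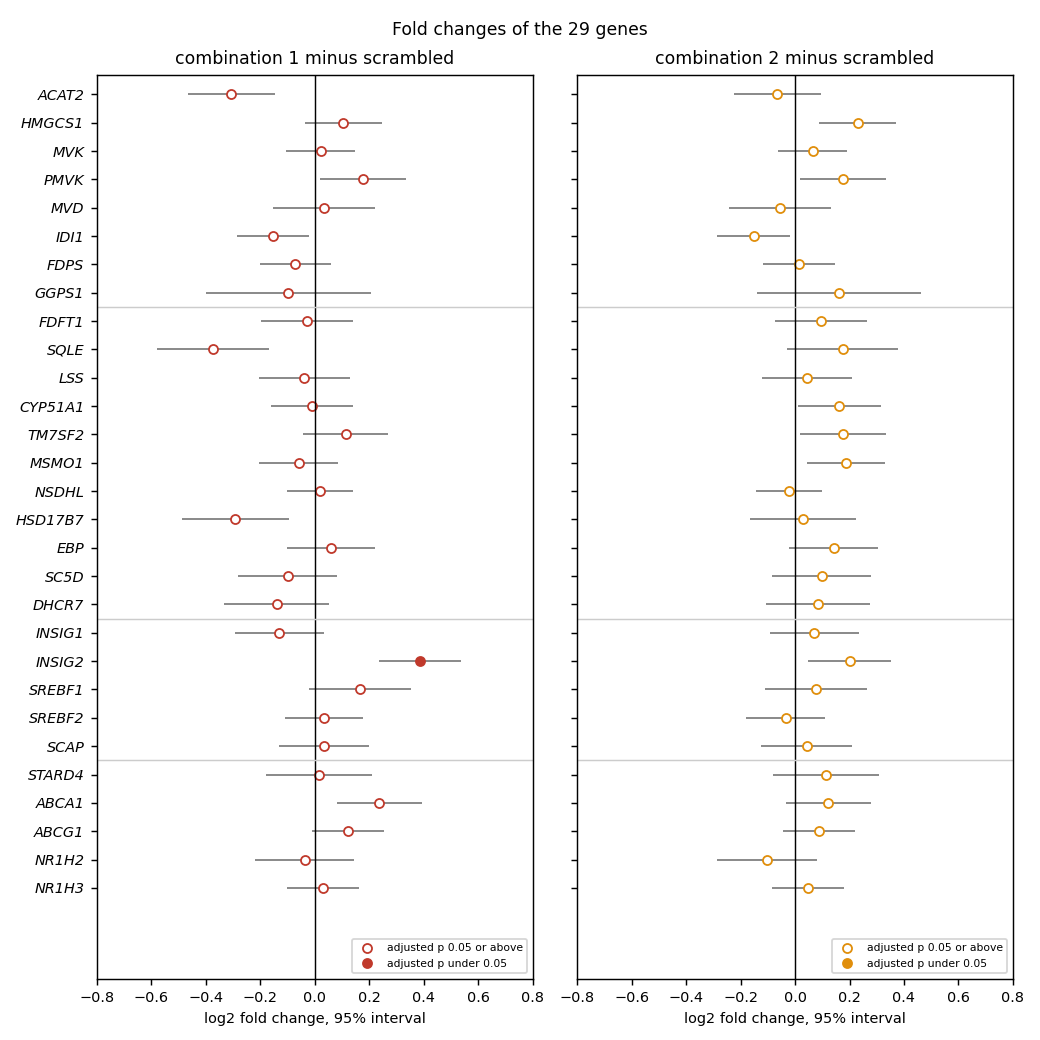
Points are log2 fold changes of the 29 genes with combination 1 (left) and combination 2 (right) against scrambled siRNA, with 95% intervals from limma; filled points passed an adjusted p of 0.05. INSIG2 with combination 1 is the only filled point, at 0.39.

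In the steps that make mevalonate and prenyl diphosphates, none of the 8 genes passed the test in any comparison, and 3 had an unadjusted p under 0.05 with each combination, where 15.7% and 13.3% of all genes had one. ACAT2 (Entrez 39), the cytosolic thiolase that condenses acetyl-CoA at the start of the pathway, had 7.94, 7.97 and 7.76 with combination 1 and 8.09, 8.17 and 8.15 with combination 2, against 8.26, 8.22 and 8.13 with scrambled siRNA. The 3 combination 1 arrays were below all other arrays, while combination 2 and scrambled arrays overlapped. For combination 1 the fold change was −0.31 (standard error 0.070, interval −0.47 to −0.15, adjusted p = 0.0835), and for combination 2 it was −0.07 (adjusted p = 0.732). It passed the threshold with combination 1 in 2 alternatives, without the dimmest 40% of probe sets (adjusted p = 0.035) and with a variance trend and robust fit (adjusted p = 0.048).

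HMGCS1, the HMG-CoA synthase, had 8.63, 8.63 and 8.62 with combination 1 and 8.66, 8.73 and 8.85 with combination 2, against 8.48, 8.50 and 8.58 with scrambled siRNA. Its fold changes were 0.11 (adjusted p = 0.443) and 0.23 (adjusted p = 0.176), and all silenced arrays were above the scrambled ones. IDI1, the isomerase that makes dimethylallyl diphosphate, was below all scrambled arrays in all silenced arrays, with the same fold change of −0.15 in both combinations (adjusted p = 0.262 with combination 1 and 0.316 with combination 2). PMVK, phosphomevalonate kinase, had a fold change of 0.18 in both combinations (adjusted p = 0.275 and 0.329). MVK, mevalonate kinase, MVD, mevalonate diphosphate decarboxylase, and FDPS, farnesyl diphosphate synthase, had fold changes between −0.07 and 0.06.

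GGPS1, the geranylgeranyl diphosphate synthase whose product is used in protein prenylation, had fold changes of −0.10 with combination 1 and 0.16 for combination 2 (adjusted p = 0.749 and 0.643). It had the widest interval of the genes: combination 2 replicate 3 was at 7.22 and the other 8 arrays were between 6.59 and 6.88. Without that array the fold change for combination 2 was 0.015.

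In the steps between squalene and cholesterol, none of the 10 genes tested passed either. The fold changes were negative for 7 of 10 with combination 1 (median −0.049) and positive for 9 of 10 with combination 2 (median 0.12). SQLE (Entrez 6713), squalene epoxidase, a rate-limiting oxygen-dependent step, had 8.94, 8.93 and 8.81 with combination 1 and 9.30, 9.38 and 9.65 with combination 2, against 9.31, 9.24 and 9.25 with scrambled siRNA. The combination 1 arrays were below all others. Combination 2 arrays overlapped the scrambled ones, and the highest of them was replicate 3.

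For combination 1 the fold change of SQLE was −0.37 (standard error 0.090, interval −0.58 to −0.17, adjusted p = 0.0997), and for combination 2 it was 0.17 (interval −0.03 to 0.38, adjusted p = 0.453), and 0.07 without replicate 3. Combination 1 minus combination 2 was −0.55 (interval −0.75 to −0.34, adjusted p = 0.060), the largest difference of the 27 genes in size and just short of the threshold. Without combination 2 replicate 3 this difference was −0.45 and passed (adjusted p = 0.0461), as did combination 1 against scrambled siRNA (adjusted p = 0.0238). Both also passed without the dimmest 40% of probe sets (adjusted p = 0.0199 and 0.0431) and with weights per array (0.0351 and 0.0389). Most alternatives did not call them: of 19, the difference passed in 4 and combination 1 against scrambled siRNA in 3. The adjusted p from limma or the ordinary linear model reached 0.262 and 0.295 in the others.

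HSD17B7, a ketoreductase of the removal of sterol methyl groups, had 7.01, 6.75 and 6.89 with combination 1 and 7.12, 7.22 and 7.27 with combination 2, against 7.26, 7.21 and 7.05 with scrambled siRNA. Its fold change was −0.29 with combination 1 (adjusted p = 0.165) and 0.03 with combination 2. MSMO1, the methylsterol oxidase, had 9.60, 9.65 and 9.46 with combination 1 and 9.78, 9.80 and 9.87 with combination 2, against 9.67, 9.61 and 9.61 with scrambled siRNA. Its fold changes were −0.06 and 0.19 (adjusted p = 0.673 and 0.265). MSMO1, CYP51A1, the lanosterol demethylase, and TM7SF2, a sterol reductase, were above all scrambled arrays in every combination 2 array, with fold changes of 0.19, 0.16 and 0.18 (adjusted p between 0.265 and 0.34). For TM7SF2 the gap was very small, with the lowest combination 2 array at 7.480 and the highest scrambled array at 7.478.

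SC5D, a sterol desaturase, and DHCR7, the reductase of a last step, were below all scrambled arrays in every combination 1 array, with fold changes of −0.10 and −0.14 (adjusted p = 0.568 and 0.447). For SC5D the gap was small, with the highest combination 1 array at 7.819 and the lowest scrambled array at 7.831. FDFT1, squalene synthase, which commits farnesyl diphosphate to sterols, had fold changes of −0.03 and 0.09 (adjusted p = 0.878 and 0.631). LSS, lanosterol synthase, NSDHL, a sterol dehydrogenase, and EBP, a sterol isomerase, had fold changes between −0.04 and 0.06 with combination 1 and between −0.02 and 0.14 with combination 2.

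**Figure D3:**
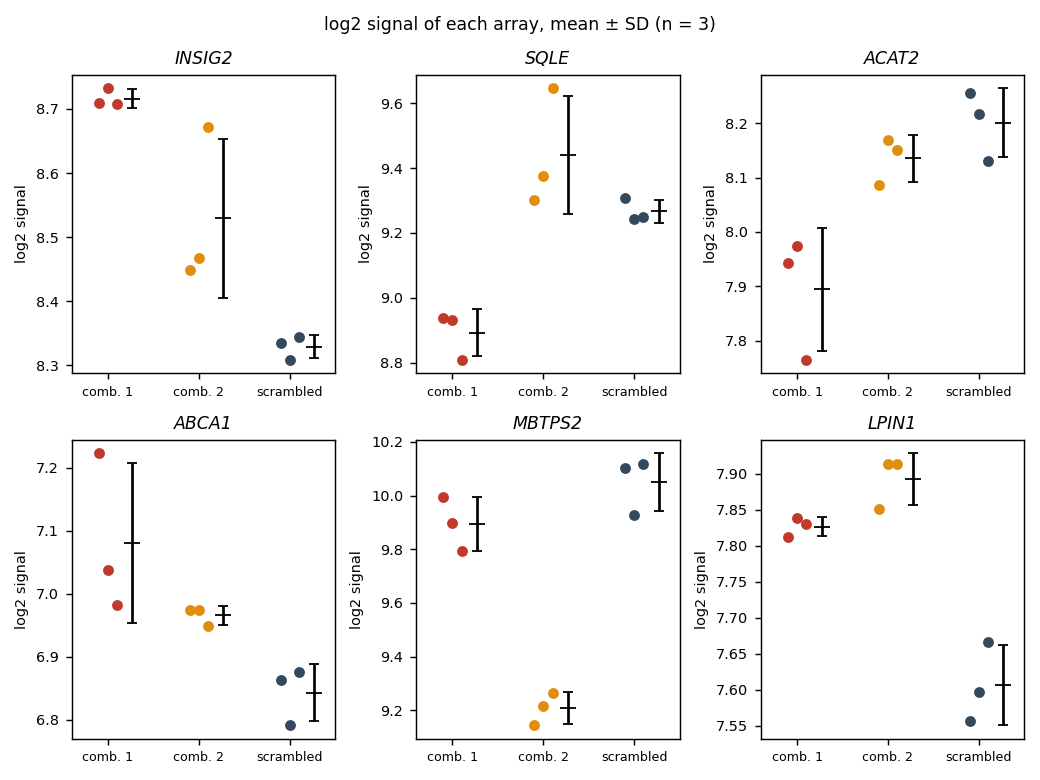
Log2 signal of 6 genes, with 1 point per array in the combination 1, combination 2 and scrambled groups, and the mean ± SD of each group beside its points (n = 3). INSIG2 is highest with combination 1, SQLE and ACAT2 are lowest there, MBTPS2 is low with combination 2 alone, and LPIN1 is higher in all 6 silenced arrays than in the scrambled ones; the vertical axes do not start at 0.

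Among the genes of sterol transport, efflux and LXR none of 4 tested passed. ABCA1 (Entrez 19), the pump that loads cholesterol onto apolipoproteins and a known LXR target, had 7.22, 7.04 and 6.98 with combination 1 and 6.97, 6.97 and 6.95 with combination 2, against 6.86, 6.79 and 6.88 with scrambled siRNA. Every silenced array was above every scrambled one. For combination 1 the fold change was 0.24 (standard error 0.069, interval 0.08 to 0.40, adjusted p = 0.162), and for combination 2 it was 0.12 (interval −0.03 to 0.28, adjusted p = 0.492). ABCG1, the second efflux pump and also an LXR target, had fold changes of 0.12 and 0.09 (adjusted p = 0.352 and 0.551). Its silenced and scrambled arrays did not overlap, but by a very small gap. The lowest silenced array, of combination 1, was at 5.773 and the highest scrambled array at 5.769. NR1H3 and NR1H2, which encode the LXR receptors, had fold changes of 0.03 and −0.04 with combination 1 and of 0.05 and −0.10 with combination 2. STARD4, a carrier of cholesterol in the cytosol, had 0.02 and 0.11.

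Groups that did not overlap were counted over the 27 genes tested. With combination 1, 12 of 27 genes (44.4%) had no overlap with scrambled arrays, 6 above (HMGCS1, PMVK, INSIG2, SREBF1, ABCA1, ABCG1) and 6 below (ACAT2, IDI1, SQLE, HSD17B7, SC5D, DHCR7). Over all genes 25.9% had none, 15.8% above and 10.1% below. With combination 2 the count was 8 of 27 (29.6%), 7 above and 1 below, where 18.1% of all genes had none, 11.6% above and 6.5% below. With both combinations pooled against scrambled arrays, it was 5 of 27 (18.5%), namely HMGCS1, INSIG2, ABCA1 and ABCG1 above and IDI1 below, where 9.49% of all genes had none, 5.93% above and 3.56% below. Without combination 2 replicate 3, 14 of 27 genes in combination 2 had no overlap with scrambled arrays, 13 above and 1 below, where 21.3% of all genes were above and 13.4% below.

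The 2 combinations were set against each other because they target the same genes with different siRNAs. None of 27 genes passed (limma, adjusted over all genes, where 0.333% of all genes did), 9 had an unadjusted p under 0.05 (8.87% of all genes), and an ordinary linear model called none. The difference, combination 1 minus combination 2, was negative for 18 genes, positive for 8 and 0 for IDI1. Its median was −0.081, beside 0.0023 over all genes. In 9 genes every combination 1 array was below every combination 2 array, and in 2 genes, INSIG2 and ABCA1, above. Over all genes 15.1% had no overlap, 8.59% below and 6.5% above.

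By role, most of the negative differences were those of enzymes, which also make up 18 of the 27 genes tested. Over the 18 enzymes tested, the mean log2 signal of an array was 8.28, 8.25 and 8.20 with combination 1 and 8.36, 8.41 and 8.40 with combination 2, against 8.35, 8.28 and 8.30 with scrambled siRNA. The combination 1 arrays were all below the combination 2 arrays. The scrambled arrays lay between the 2 groups, the nearest values being 8.282 with combination 1 and 8.283 with scrambled siRNA. Of the 18 enzymes, 14 had a negative difference and 3 a positive one, with a median of −0.105. In the steps from squalene to cholesterol it was negative in 9 of 10 genes (median −0.186), NSDHL being the exception at 0.04, and 6 of the 10 did not overlap, all below. Without combination 2 replicate 3 the median of the 10 was −0.130, with 9 of 10 negative and 8 not overlapping, all below, where 16% of all genes were below.

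The genes with an unadjusted p under 0.05 between the combinations and a negative difference were SQLE (−0.55), HSD17B7 (−0.32, adjusted p = 0.29), MSMO1 (−0.25, adjusted p = 0.266), ACAT2 (−0.24, adjusted p = 0.336), DHCR7 (−0.23, adjusted p = 0.475), INSIG1 (−0.20, adjusted p = 0.451), SC5D (−0.20, adjusted p = 0.519) and CYP51A1 (−0.17, adjusted p = 0.487). INSIG2 was the one with a positive difference. YAP1 and WWTR1 themselves differed by 0.03 and 0.04 between the combinations (adjusted p = 0.939 and 0.845).

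**Figure D4:**
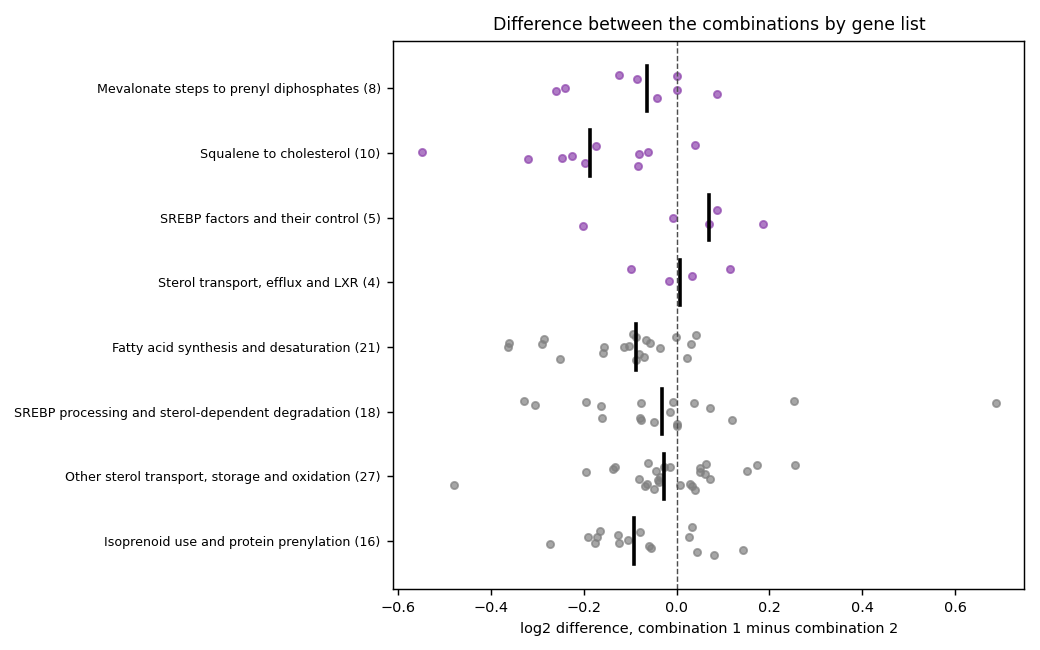
Each point is the log2 difference of 1 gene, combination 1 minus combination 2, by gene list, with the number tested in brackets and a bar at the median. Points left of 0 are lower with combination 1; the list from squalene to cholesterol has its median at −0.186, and the point far to the right is MBTPS2 at 0.69. The interferon list is not drawn.

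Genes around the pathway were counted in 5 lists. Of 21 genes of fatty acid synthesis and desaturation, which SREBP also controls, none passed with combination 1 or combination 2 (2 and 7 at an unadjusted p under 0.05, where 15.7% and 13.3% of all genes were). The fold change was positive for 20 of 21 with combination 2 (median 0.113) and for 11 of 21 with combination 1 (median 0.006). Combination 1 minus combination 2 was negative for 18 of the 21 (median −0.088), and 10 did not overlap, all below, where 8.59% of all genes were below. LPIN1, a phosphatidate phosphatase of lipid synthesis, had 7.81, 7.84 and 7.83 with combination 1 and 7.85, 7.91 and 7.91 with combination 2, against 7.56, 7.60 and 7.67 with scrambled siRNA. It rose in the mean of both combinations (log2 fold change 0.25, standard error 0.045, adjusted p = 0.0318), with 0.22 for combination 1 (adjusted p = 0.0915) and 0.29 for combination 2 (adjusted p = 0.0534). This call was lost (adjusted p between 0.0594 and 0.147) when any 1 array was left out other than combination 2 replicate 3 or scrambled replicate 3.

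Of 18 genes of SREBP processing and sterol-dependent degradation, 1 fell with combination 2 and none passed with combination 1 (6 at an unadjusted p under 0.05, beside 15.7% of all genes, and 9 of 18 with all combination 1 arrays below the scrambled ones, beside 10.1%). The gene was MBTPS2, the site-2 protease that makes the last cut releasing SREBP. It had 10.00, 9.90 and 9.80 with combination 1 and 9.15, 9.22 and 9.26 with combination 2, against 10.10, 9.93 and 10.12 with scrambled siRNA. With combination 2 it fell by 44.2% (log2 fold change −0.84, standard error 0.077, adjusted p = 0.00352), and its log2 fold change was −0.15 for combination 1 (adjusted p = 0.373). Combination 1 minus combination 2 was 0.69 (adjusted p = 0.0091), a call that was lost without combination 1 replicate 2 (0.0573) or combination 2 replicate 2 (0.0526), while the fall against scrambled siRNA was called in all 19 alternatives.

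None of 16 genes of isoprenoid use and protein prenylation passed in any comparison (1 at an unadjusted p under 0.05 with combination 1 and none with combination 2), nor did any of 27 other genes of sterol transport, storage and oxidation (2 with combination 1 and 4 with combination 2). Over all genes 15.7% had such an unadjusted p with combination 1 and 13.3% with combination 2, and only 1.51% and 0.75% passed. The medians of both lists were between −0.067 and 0.009 with each combination. The other list, the interferon response, is given above, with a median of 1.56 with combination 1 and 0.46 with combination 2.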

How the data were processed

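HuCCT-1 RNA was measured on 9 Clariom D arrays. Log2 signals were deposited, which the authors annotated with a custom CDF, with a probe set per Entrez gene, and background-corrected and normalized by RMA (version not given in the sources used here, nor the genome build). Scrambled replicate 1 holds 29641 distinct values and each other array 7528. No column was left unused. The 2133 probe sets without a named gene were left out of the comparisons, so their genes are not reported here. Log2 levels of different probe sets were not compared with each other. The number of arrays limits the precision.

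The values were fitted here in R 4.3.3 with limma 3.58.1 as 3 group means on 9 arrays with variances moderated by eBayes (2.56 prior degrees of freedom), for combination 1 and combination 2 against scrambled siRNA, their mean against scrambled siRNA, and combination 1 minus combination 2. Adjustment was by Benjamini-Hochberg across 37201 genes, with a threshold of 0.05. The procedure was tested on simulated data. Replicate numbers did not pair the arrays.

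A list of other genes around the pathway is not reported here. Members and lists were chosen with earlier results of these data known. Every array's value is given for pathway genes past the threshold in any comparison and for the smallest p of each role group. From the other lists genes past the threshold are named, except interferon genes, which are counted. Array values of HMGCS1, INSIG1, SREBF1, HSD17B7 and MSMO1 were added after their values were seen. Alternatives were quantile normalization, median centring, no dimmest 40% of probe sets, all probe sets, weights per array, an ordinary linear model, values rounded to 2 decimals, a variance trend with robust fit, only the arrays compared, a block for the replicate number, and leaving out each array.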

Additional observations from a re-analysis of the deposited data

Results flagged for a closer look

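Apart from the interferon genes, 1 gene of the lists reported here around the pathway differed between the 2 siRNA combinations by the test of the difference itself. MBTPS2, the site-2 protease of SREBP, was higher with combination 1 than with combination 2 by a log2 value of 0.69 (standard error 0.077, adjusted p = 0.0091 from limma). Its 3 combination 2 arrays lay below the 6 other arrays. Over the alternatives MBTPS2 passed in 16 of 19 settings (0.64 to 0.74, adjusted p between 0.00232 and 0.0647).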

How the results depend on the processing

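Of the 27 genes tested, 24 were never called with combination 1 under any of 19 alternatives, 27 with combination 2, 26 in the mean of both combinations (18 alternatives) and 26 between the combinations. No called value changed sign, and 22, 22, 19 and 22 of the 27 fold changes kept their sign in all of these alternatives. The median over the 27 genes ranged from −0.003 to 0.030 with combination 1, 0.070 to 0.092 with combination 2, 0.022 to 0.044 in the mean and −0.111 to −0.025 between the combinations. Without the dimmest 40% of probe sets, 1067 genes were called with combination 1 and 539 with combination 2, against 563 and 279. In the mean 1132 were called and between the combinations 226, against 595 and 124. Fewer genes were tested in this setting, so that these counts are not out of 37201, and the variances were moderated anew. All 27 pathway genes stayed in this setting, 0 being among the probe sets left out. Of the 27, 3 were called with combination 1 and 1 between the combinations, beside the 1067 and 226 called over all genes kept. Weights per array gave 981, 423 and 957 of the 37201 genes in the first 3 comparisons, with 2 of 27 pathway genes for combination 1 and 1 between the combinations. A variance trend with robust fit gave 425 of the 37201 genes with combination 2 and 187 between the combinations, with 2 of 27 pathway genes for combination 1 and 1 between the combinations. An ordinary linear model gave 73 genes between the combinations and 0 pathway genes with combination 1 and in the mean. Using only the arrays compared gave 55 genes with combination 2 and 54 between the combinations. With all probe sets 0 pathway genes were called in the mean, INSIG2 having an adjusted p of 0.0502. The cause of these shifts was not tested for any setting. Leaving out 1 array at a time gave 196 to 730 genes with combination 1, 81 to 358 with combination 2, 198 to 867 in the mean and 48 to 124 between the combinations, and 0 to 2, 0 to 0, 0 to 1 and 0 to 1 pathway genes.

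The replicate numbers are shared between groups, but same-numbered arrays did not deviate together: over 9 pairs the correlations were between −0.181 and 0.051, and 0 were over 0.1. A fit with the replicate number as a block called 206 genes with combination 1, 48 with combination 2, 224 in the mean and 42 between the combinations, and 0 pathway genes in the first and the mean comparison, where INSIG2 had an adjusted p of 0.0951 and 0.122. It also ended the calls of LPIN1 in the mean (adjusted p = 0.108) and of MBTPS2 in the mean (0.0506) and between the combinations (0.0647).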
